A study of Homo sapiens with 4 samples.

Results

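The small nucleolar RNA host genes are noncoding genes named for the small nucleolar RNAs (snoRNAs) that their introns carry, although RefSeq places none within SNHG27 and SNHG28. They were taken from the table of all genes by symbol, as every SNHG gene (SNHG followed by a number) together with GAS5 and ZFAS1. The rule found 30 of 28198 genes, and the table classes each of the 30 as lncRNA (long noncoding RNA). The rule takes names alone, but the group was chosen by the FPKM of these same libraries, among them the low polysome value of SNHG9, so what follows is a description. MDA-MB-231, a human breast cancer cell line, had been depleted of METTL3 and infected with lentivirus to express METTL3-WT (here WT cells) or METTL3-K177Q (K177Q cells), in which a lysine within the nuclear localization signal is replaced by glutamine to mimic acetylation. METTL3 is the catalytic subunit of the enzyme that writes m6A on RNA. Lysates of cycloheximide-treated cells were separated on a sucrose gradient and pooled into a sub-polysome fraction (free subunits and single ribosomes) and a polysome fraction, whose poly(A)-selected RNA was sequenced. The 4 libraries analysed here, all replicate 2, give 1 library for each fraction of each genotype. Replicate error is thus unknown from the libraries analysed, and neither genotypes nor fractions could be compared by a test.

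snoRNAs guide chemical modification of ribosomal RNA, box C/D snoRNAs guiding ribose methylation and box H/ACA snoRNAs guiding pseudouridylation, while scaRNAs do the same for spliceosomal RNAs in Cajal bodies. Most are released from the introns of a host transcript after splicing. The spliced exons of the noncoding hosts reach the cytoplasm, where ribosomes engage short reading frames in many of them and nonsense-mediated decay then removes the transcript. Many hosts, like ribosomal protein genes, begin with a terminal oligopyrimidine (TOP) tract, a C followed by a run of pyrimidines at the first base of the RNA, which links their translation to growth signals. The libraries measure the spliced host and not the snoRNA: all 529 genes that the table classes as snoRNA are listed at 0 in the 4 libraries.

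The annotated start was examined first, because the TOP tract is the sequence feature these genes are known for. RefSeq start-site sequence on GRCh38.p14 was found for 26 of the 30 genes (SNHG6, SNHG9, SNHG15 and SNHG25 had none). For each gene a single annotated start was used. A TOP tract was read as C at the annotated first base followed by at least 4 further C or T, on the strand of the gene. It was found in 7 of the 26 genes, or 26.9%, against 4.04% of all 27305 promoters searched. Where the RNA begins in these cells was not measured, so a gene counted without a tract may still have one. Below, 10 bases before and 20 bases from the annotated start are shown 5′ to 3′, with the tract in capitals. The genes are the 5 expressed hosts that hold one, and GAS5, SNHG1 and SNHG16, which hold none at the annotated start.
SNHG5: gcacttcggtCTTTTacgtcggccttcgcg
SNHG12: gcttcagcgcCCTTTCTCCCCgccgcattc
SNHG19: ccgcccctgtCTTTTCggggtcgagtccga
SNHG32: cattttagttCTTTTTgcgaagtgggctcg
ZFAS1: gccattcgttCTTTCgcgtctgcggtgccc
GAS5: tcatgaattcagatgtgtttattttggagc
SNHG1: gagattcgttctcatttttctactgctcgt
SNHG16: gggcggtctcgcgttcttttcgaggtcggc
These windows lie at chr6:85678714-85678743 (SNHG5), chr1:28581854-28581883 (SNHG12), chr16:2155339-2155368 (SNHG19), chr6:31834906-31834935 (SNHG32), chr20:49278632-49278661 (ZFAS1), chr1:173869026-173869055 (GAS5), chr11:62855866-62855895 (SNHG1) and chr17:76557754-76557783 (SNHG16). SNHG32 and ZFAS1 are on the plus strand, as is SNHG16, and the other 5 are on the minus strand. For SNHG12 and ZFAS1 the start used lies inside the RefSeq gene span (chr1:28578538-28582983 and chr20:49278178-49289260), not at its 5′ end. When the first base was allowed to lie within 5 bases of the annotated start, 12 of the 26 genes held a tract, or 46.2%, against 21.1% of all promoters. The remaining TOP-bearing genes, SNHG4 and SNHG18, were hardly detected. Of 64 ribosomal protein genes with a sequence, 68.8% held a tract at the exact start.

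Levels were read in FPKM, which is per kilobase of transcript and so can be compared between genes. The minimum set for all genes, 1 FPKM averaged across the 4 libraries, was reached by 20 of the 30 genes, as it was by 10905 genes in all. Of the 10 genes below it, SNHG18 came closest with a mean of 0.660 FPKM, followed by SNHG26 (0.608 FPKM), SNHG20 (0.476 FPKM), SNHG28 (0.355 FPKM) and SNHG4 (0.343 FPKM), while SNHG14, SNHG22, SNHG25, SNHG27 and SNHG31 were listed at 0 in all 4 libraries. Of the 20 above it, SNHG10 was lowest, with a mean of 5.75 FPKM, so the minimum fell in a wide gap. The 30 genes together made up 0.696% of all sub-polysome FPKM and 0.138% of all polysome FPKM in WT cells. The corresponding shares in K177Q cells were 0.732% and 0.105%. The table gives no counts. If the lowest cluster of FPKM multiplied by transcript length stands for 1 fragment, the libraries hold between about 23500000 and 26500000 fragments, from which the counting errors quoted here were approximated. MDA-MB-231 is a mesenchymal-like line without hormone receptors, and VIM (the intermediate filament vimentin) was at 677 to 1543 FPKM and CD44 (a hyaluronan receptor) at 110 to 151 FPKM, while ESR1 and PGR, the estrogen and progesterone receptors, did not exceed 0.012 and 0.0066 FPKM. The level listed for METTL3, which may include both remaining endogenous and introduced RNA, was 9.39 FPKM (sub-polysome) and 38.7 FPKM (polysome) in WT cells. It was lower in both fractions of K177Q cells, at 5.07 FPKM and 29.5 FPKM.

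**Figure D1:**
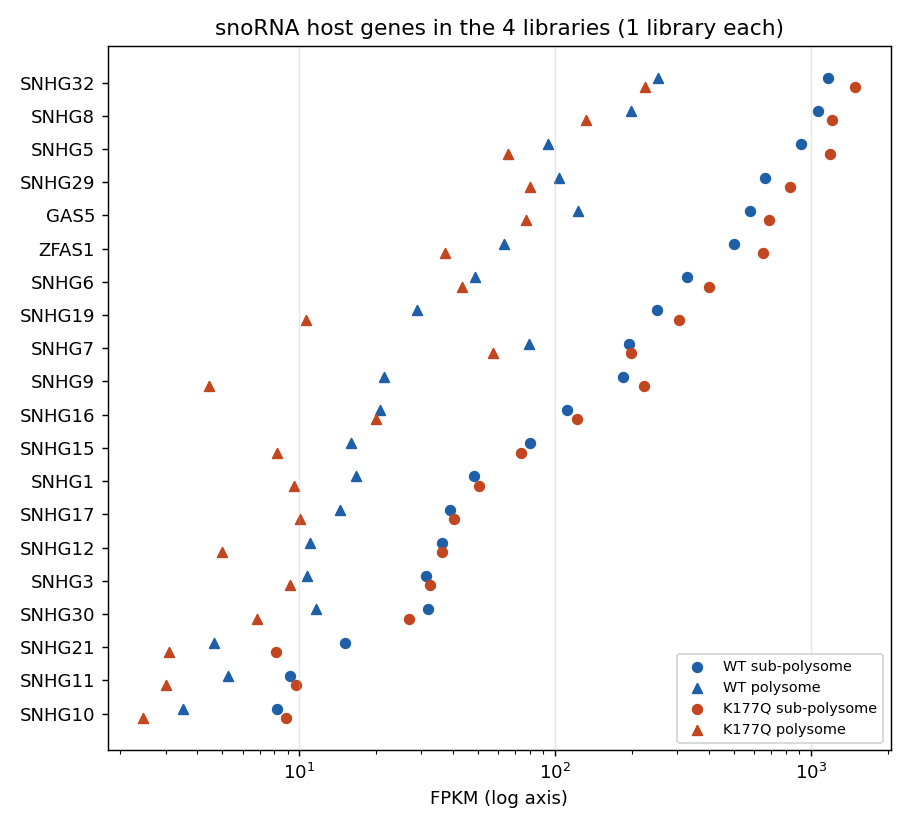
FPKM (log axis) of the 20 expressed snoRNA host genes, ordered by mean, in each of the 4 libraries. Circles are sub-polysome and triangles polysome values, blue for WT and red for K177Q cells, and in every gene both circles lie to the right of both triangles.

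Every expressed host was more abundant in the sub-polysome than in the polysome library of each genotype. Translation efficiency (polysome FPKM divided by sub-polysome FPKM, with 0.1 added to each) was at least 1.5-fold below 1 for 20 of 20 hosts in WT cells, where 19.1% of all genes were, and for 20 of 20 in K177Q cells, where 21.3% of all genes were. It was at least 1.5-fold above 1 for 0 of 20 hosts in either genotype, beside 28.1% of all genes in WT and 30.2% in K177Q cells. Most other lncRNAs shared the sub-polysome excess. Of the 400 above the minimum, 83% were at least 1.5-fold below 1 in WT and 87.2% in K177Q cells. Of the 69 with a mean of at least 10 FPKM, 89.9% and 97.1% were. The median log2 translation efficiency of the hosts was -2.22 in WT and -2.78 in K177Q cells, against 0.14 and 0.16 for all genes. In a bulk fraction, fewer transcripts loaded with ribosomes and fewer ribosomes on each transcript cannot be told apart. Whether host RNA in the polysome fraction was bound to ribosomes was not measured.

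Among hosts of box C/D snoRNAs, SNHG32 (SNORD48 and SNORD52) was the most abundant host of all, with 1169 FPKM in the WT sub-polysome and 253 FPKM in the WT polysome library, and 1486 FPKM and 224 FPKM in those of K177Q cells. SNHG5 (SNORD50A and SNORD50B) had the lowest translation efficiency of the expressed hosts in WT cells, with 917 FPKM sub-polysome and 94.1 FPKM polysome, a 9.73-fold excess in the sub-polysome library. In K177Q cells SNHG5 had 1192 FPKM and 65.5 FPKM, an 18.2-fold excess. SNHG29, which carries SNORD49A, SNORD49B and SNORD65, had 658 FPKM and 103 FPKM in WT cells and 831 FPKM and 79.8 FPKM in K177Q cells. The polysome level of these 3 abundant hosts was lower, and the sub-polysome level higher, in K177Q than in WT cells. ZFAS1, named for its position antisense to the start of ZNFX1 and host of SNORD12, SNORD12B and SNORD12C, had 502 FPKM sub-polysome and 63.0 FPKM polysome in WT cells, and 652 FPKM and 37.1 FPKM in K177Q cells. SNHG6 (SNORD87) had 326 FPKM and 48.6 FPKM against 398 FPKM and 43.2 FPKM. SNHG19 (SNORD60) had 250 FPKM and 28.8 FPKM in WT cells, and 306 FPKM and 10.6 FPKM in K177Q cells, so that its sub-polysome excess went from 8.65-fold to 28.5-fold. SNHG16, with SNORD1A, SNORD1B and SNORD1C, differed least between genotypes in the polysome libraries, with 111 FPKM and 20.7 FPKM in WT and 122 FPKM and 20.04 FPKM in K177Q cells. SNHG1, which holds 8 box C/D snoRNAs, had 48.0 FPKM and 16.7 FPKM in WT cells, and 50.3 FPKM and 9.54 FPKM in K177Q cells. SNHG30 (SNORD7) had 31.7 FPKM and 11.6 FPKM, against 26.9 FPKM and 6.85 FPKM, and was thus lower in both fractions of K177Q cells.

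Among hosts of box H/ACA snoRNAs, SNHG8 (SNORA24) was the most abundant, with 1064 FPKM sub-polysome and 199 FPKM polysome in WT cells and 1210 FPKM and 132 FPKM in K177Q cells. SNHG9 is a short host of SNORA78 at chr16:1964996-1965504, beside the ribosomal protein gene RPS2. It had 185 FPKM sub-polysome and 21.5 FPKM polysome in WT cells. In K177Q cells it had 222 FPKM sub-polysome but 4.42 FPKM polysome, a 49.1-fold excess in the sub-polysome library where WT cells had an 8.58-fold excess. The polysome value of 4.42 FPKM stands for about 44.9 fragments at the approximate depth, against 222 fragments for the WT polysome value. SNHG7 (SNORA17A and SNORA17B) had 194 FPKM and 79.0 FPKM against 199 FPKM and 57.0 FPKM, so only its polysome value differed by more than a few percent. SNHG15 (SNORA9) had 79.9 FPKM and 15.9 FPKM against 73.3 FPKM and 8.17 FPKM. SNHG17, host of SNORA71A to SNORA71D, had 38.9 FPKM and 14.5 FPKM against 40.4 FPKM and 10.1 FPKM. SNHG3 (SNORA73A and SNORA73B) had 31.4 FPKM and 10.7 FPKM against 32.5 FPKM and 9.19 FPKM. SNHG3 shares exons on its strand with RCC1, an mRNA of 33.9 FPKM on average, and reads of the shared part could have been assigned to either. SNHG11, with SNORA60 and SNORA71E, had 9.16 FPKM and 5.25 FPKM in WT cells, the highest translation efficiency of the expressed hosts there, and 9.75 FPKM and 3.02 FPKM in K177Q cells.

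GAS5 and SNHG12 carry snoRNAs of both classes. GAS5, first described as a transcript that accumulates in growth-arrested cells, spans chr1:173863901-173869045 and holds 10 box C/D snoRNAs and SNORA103. It had 579 FPKM sub-polysome and 123 FPKM polysome in WT cells, and 685 FPKM and 77.0 FPKM in K177Q cells, a sub-polysome excess of 4.71-fold against 8.89-fold. SNHG12, with SNORD99, SNORA16A, SNORA44 and SNORA61, had 35.99 FPKM and 11.03 FPKM against 36.2 FPKM and 5.01 FPKM. SNHG10 and SNHG21 carry scaRNAs (SCARNA13 and SCARNA15). SNHG10 had 8.17 FPKM and 3.51 FPKM in WT cells, and 8.89 FPKM and 2.45 FPKM in K177Q cells. SNHG21 was the only expressed host at least 1.5-fold lower in the sub-polysome library of K177Q cells, with 15.1 FPKM in WT and 8.08 FPKM in K177Q cells, beside 4.62 FPKM and 3.10 FPKM in the polysome libraries.

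**Figure D2:**
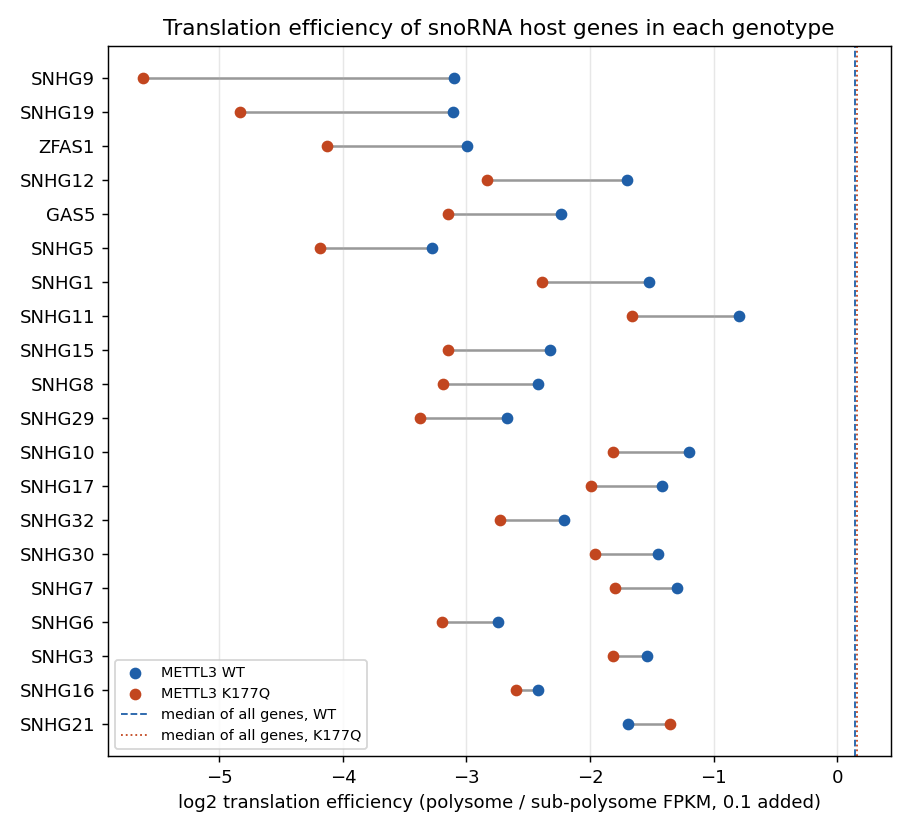
Log2 translation efficiency (polysome FPKM over sub-polysome FPKM, 0.1 added to each) of the 20 expressed hosts in WT (blue) and K177Q (red) cells, 1 library per fraction and genotype, ordered by the difference, with dashed and dotted lines at the medians of all genes (0.14 and 0.16). The red point lies to the left of the blue point in 19 of the 20 hosts, and SNHG21 is the exception.

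The study asked whether K177Q alters translation. In K177Q cells it reported more polysomes, fewer free subunits and single ribosomes, and more protein synthesis. It also listed mRNAs at least 1.5-fold higher in translation efficiency. For these noncoding hosts the polysome to sub-polysome ratio was lower in K177Q than in WT cells. FPKM gives shares of each library, so the number of host transcripts on polysomes was not measured. Translation efficiency was at least 1.5-fold lower for 12 of 20 hosts, where 7.03% of all genes were, and at least 1.5-fold higher for 0 of 20, where 4.08% of all genes were. The median log2 ratio of the hosts was -0.74, and that of all genes was -0.01. The log2 ratio was below 0 for 19 of 20 hosts, as it was for 5573 of all 10905 genes. FPKM is relative to each library, and rescaling to TPM (the same total in every library) added 0.30 to the median ratio of all genes. With TPM, 6 of the 20 hosts were still at least 1.5-fold lower (GAS5, SNHG5, SNHG9, SNHG12, SNHG19 and ZFAS1), where 2.83% of all genes were, and 1 of 20, SNHG21 at 0.63, was at least 1.5-fold higher, where 18.6% of all genes were. With TPM 17 hosts were below 0, and 19 were below the median of all genes, as 19 were in the deposited FPKM.

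SNHG9 had the largest decrease, with a log2 ratio of -2.52 and a counting standard error of about 0.24, and was 5.73-fold lower. SNHG19 followed at -1.72 with a counting standard error of about 0.15, or 3.30-fold lower. ZFAS1 was 2.20-fold lower and SNHG12 2.19-fold lower (log2 ratios of -1.14 and -1.13). GAS5 was 1.89-fold lower, SNHG5 1.87-fold, SNHG1 1.82-fold, SNHG11 1.82-fold, SNHG15 1.78-fold, SNHG8 1.70-fold, SNHG29 1.63-fold and SNHG10 1.54-fold. SNHG10, the last of these, and SNHG17, just outside the threshold at 1.49-fold, both lay nearer to it than their counting standard errors of about 0.22 and 0.12 (log2), and SNHG10 was at -0.49 with a pseudocount of 1 FPKM, short of the threshold. SNHG32, SNHG30, SNHG7 and SNHG6 were between 1.37-fold and 1.43-fold lower. SNHG3 had a log2 ratio of -0.27, which became 0.08 when its FPKM was summed with that of RCC1 and 0.03 with TPM. SNHG16 had -0.18, and 0.12 with TPM. SNHG21 was the only host above 0 in the deposited FPKM, at 0.34, with a counting standard error of about 0.30. These standard errors cover counting only, and how far 2 libraries of the same condition would differ is not known from the libraries analysed.

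Each fraction was then compared between genotypes. In the polysome libraries, 9 of 20 hosts were at least 1.5-fold lower in K177Q cells, where 3.13% of all genes were, and 0 of 20 were higher, where 2.13% were. The median log2 ratio of the hosts was -0.57 there, against -0.02 for all genes. All 20 hosts were below 0, as were 5856 of all 10905 genes. The 9 hosts were SNHG9 (4.77-fold lower), SNHG19 (2.70-fold), SNHG12 (2.18-fold), SNHG15 (1.93-fold), SNHG1 (1.74-fold), SNHG11 (1.71-fold), ZFAS1 (1.69-fold), SNHG30 (1.68-fold) and GAS5 (1.60-fold). In the sub-polysome libraries the hosts had a median log2 ratio of 0.13, against 0.00 for all genes. There, 0 of 20 were at least 1.5-fold higher, where 4.01% of all genes were, and 1, SNHG21, was lower, where 2.94% were. Polysome FPKM was lower and sub-polysome FPKM higher in K177Q cells for 17 of 20 hosts, a combination that 23.9% of all genes showed, and SNHG15, SNHG21 and SNHG30 were the exceptions. These directions were not particular to the hosts. Of 80 ribosomal protein genes, 79 were below 0 in the polysome and 80 above 0 in the sub-polysome libraries. The exception in the polysome libraries, RPL21, averaged 2.04 FPKM. Of 69 other lncRNAs with a mean of at least 10 FPKM, 52 were below 0 in the polysome and 48 above 0 in the sub-polysome libraries. The sub-polysome side depended on the scaling: with TPM, 8 of 20 hosts were above 0 and their median was -0.08, but 17 lay above the median of all genes, -0.21, as 17 did in the deposited FPKM. With TPM, 19 of 20 were below 0 in the polysome libraries.

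**Figure D3:**
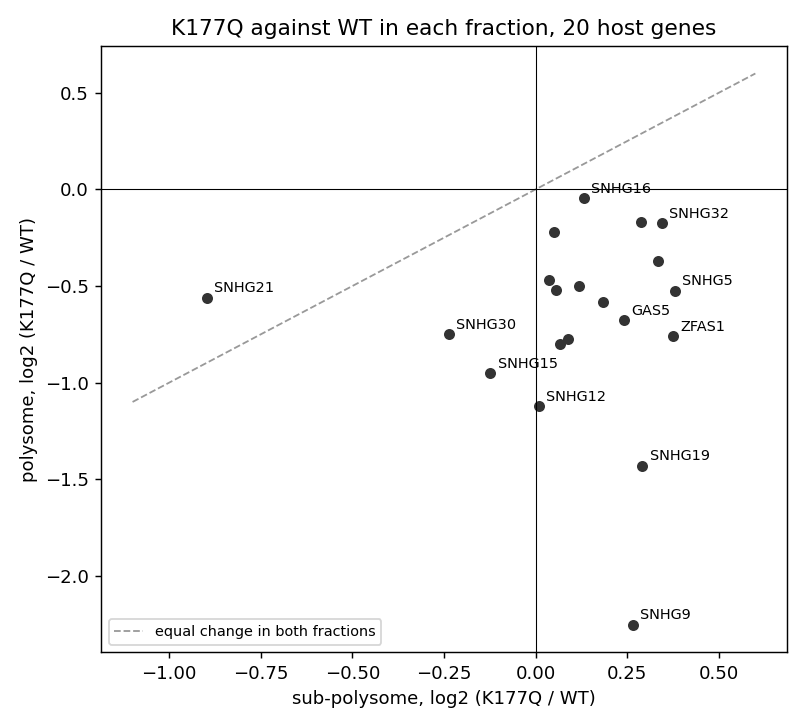
Log2 ratio of K177Q to WT FPKM in the sub-polysome (x axis) and the polysome libraries (y axis) for the 20 expressed hosts, with a dashed line where both fractions change equally. All points lie below 0 on the y axis and 17 lie right of 0 on the x axis, and SNHG21 is the only point above the dashed line.

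The hosts kept nearly the same order in the 2 genotypes. Across the 20 expressed hosts, log2 translation efficiency in WT and in K177Q cells, which come from separate libraries, had a Spearman rho of 0.91 and a Pearson r of 0.89. Hosts with longer transcripts (median length of their GENCODE 44 transcripts) had higher translation efficiency, with a rho of 0.61 in WT and 0.63 in K177Q cells. The log2 ratio between genotypes also rose with length, with a rho of 0.45. SNHG9 and SNHG19, which had the largest decreases, were the shortest expressed hosts, at 405 and 479 bases. More abundant hosts had lower translation efficiency, with a rho of -0.68 against mean FPKM in WT and -0.70 in K177Q cells. Mean FPKM is made up mostly of the sub-polysome values, which are also the denominator of translation efficiency, so a negative rho with level is partly built in and nothing is read from it. The points of each correlation share the same libraries, and both FPKM and the fractions depend on length, so these values are descriptive.

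By class of snoRNA, the 9 expressed hosts of box C/D snoRNAs alone had a median log2 translation efficiency of -2.67 in WT cells, and the 7 of box H/ACA snoRNAs alone had -1.54. The ranges overlapped, from -3.28 to -1.45 and from -3.10 to -0.79. The classes also differed in level, with medians of 204 and 44.3 FPKM. The median ratios of these classes between genotypes were close, -0.71 and -0.77. At least 1.5-fold lower were 5 of 9 and 4 of 7, where 7.03% of all genes were. By start site, the 5 hosts with a TOP tract (SNHG5, SNHG12, SNHG19, SNHG32 and ZFAS1) had a median log2 ratio of -1.13 and 4 of 5 were at least 1.5-fold lower, SNHG32 being the exception. The 12 hosts with a sequence but no tract at the exact start had a median of -0.60, with 6 of 12 at least 1.5-fold lower. Of all genes, 7.03% were. These groups also differed in level, with medians of 313 FPKM with a tract and 28.5 FPKM without. The ranges of these groups overlapped, from -1.72 to -0.52 with a tract and from -0.92 to 0.34 without, and the part of the tract in the ratio was not tested. The distance between the medians depended on the definition: with the first base within 5 bases of the start, a comparison added after seeing the data, 9 hosts with a tract had a median of -0.77 and 5 of 9 at least 1.5-fold lower, and 8 without had -0.66 and 5 of 8.

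Comparison with other genes showed where the hosts stood. The 400 other lncRNAs above the minimum had a median log2 ratio of -0.31, and 37.8% of them were at least 1.5-fold lower in K177Q cells and 12.5% higher. The 69 of them with a mean of at least 10 FPKM had a median of -0.53, with 44.9% at least 1.5-fold lower and 4.35% higher, beside a median of -0.77, 10 of 17 lower and 0 of 17 higher for hosts at that level. Of all 5379 genes at that level, 5.8% were at least 1.5-fold lower and 0.706% higher. The 69 lncRNAs include DANCR and EPB41L4A-AS1, which also hold a snoRNA, and readthrough entries named for neighbouring genes, such as BLOC1S5-TXNDC5. LINC02585, among those higher, had 42.1 FPKM in the WT sub-polysome library and 0 FPKM in the others. In WT cells, the median log2 translation efficiency of these abundant lncRNAs was -1.68, against -2.32 for hosts at that level. Some mRNAs host snoRNAs too, and they were divided by kind. The 29 ribosomal protein mRNAs that host a snoRNA, among them RPLP2 and RPL39, had a median log2 ratio of -0.61, with 18 of 29 at least 1.5-fold lower and 1 of 29 higher. The gene that was higher, RPL21, averaged only 2.04 FPKM, where the median of the 29 was 1465 FPKM. The 51 ribosomal protein genes without a snoRNA had -0.65, with 36 of 51 at least 1.5-fold lower. The 123 other host mRNAs, led by EIF4A1, EEF1B2, SLC25A3 and ATP5F1B, had a median of 0.08, with 4 of 123 at least 1.5-fold lower and 2 of 123 higher. RPS2, which neighbours SNHG9, had a log2 ratio of -0.61.

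**Figure D4:**
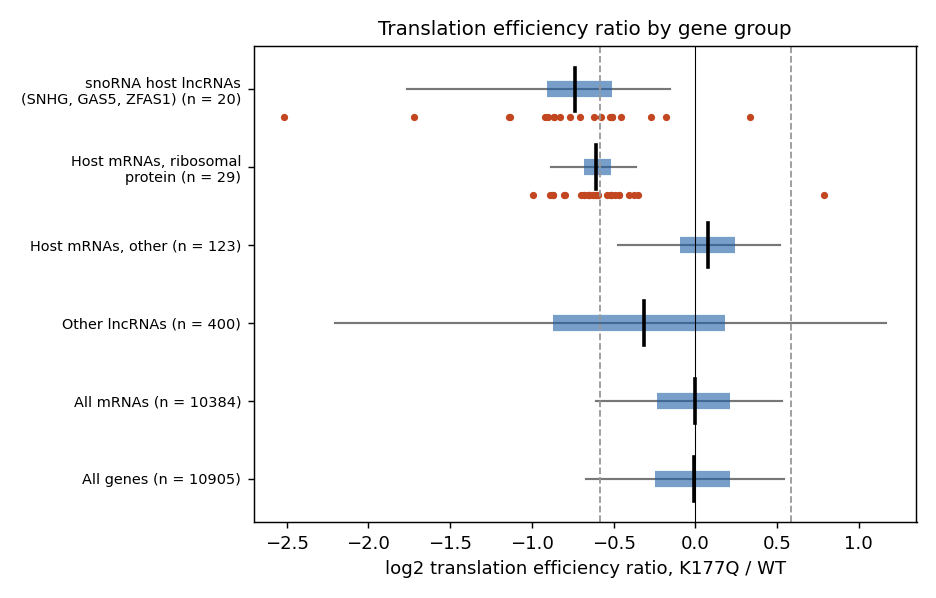
Log2 translation efficiency ratio of K177Q to WT cells by gene group, with the median as a black tick, the 25th to 75th percentile as a bar, the 5th to 95th percentile as a line, single genes as red points in groups under 40, and dashed lines at 1.5-fold. The noncoding hosts (median -0.74) and the ribosomal protein host mRNAs (median -0.61) lie left of all mRNAs, and the other host mRNAs (median 0.08) do not.

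The mRNAs of proteins that assemble with snoRNAs were counted in the same way. Of the box C/D core proteins, FBL (the ribose methyltransferase fibrillarin), NOP56, NOP58 and SNU13 had log2 ratios between -0.54 and -0.16, with 0 of 4 past 1.5-fold. Of the 6 box H/ACA genes, led by NOP10, NHP2, GAR1 and DKC1 (the pseudouridine synthase dyskerin), 0 were past 1.5-fold and the median was 0.07. Of 8 snoRNP assembly genes, which include the ATPases RUVBL1 and RUVBL2, 1 was at least 1.5-fold lower, the assembly factor ZNHIT3 at -0.65, and the median was -0.11. Among 13 nonsense-mediated decay genes, whose pathway is known to degrade spliced host transcripts, 0 were at least 1.5-fold lower and 1 was higher, UPF2 at 0.80, with a median of 0.10. Counts of 0 or 1 are near what the 7.03% and 4.08% of all genes give for lists of these sizes.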

How the data were processed

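The polysome profiling libraries were poly(A)-selected and strand-directional. The authors deposited FPKM per gene, and the values were used as given. The submitters' processing notes name STAR 2.7, StringTie 2.1.5 and hg38, and the annotation is not given in the sources used here. Another 4 value columns, by their names replicate 1 of the same fractions and genotypes, could not be tied to a listed sample and are not used here. The members and lists were chosen with earlier results of these data known.

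Ratios were computed on log2(FPKM + 0.1), which understates the change of low genes, for genes averaging 1 FPKM or more, and counted at 1.5-fold, a threshold also used in the study. With 1 library per condition, no test was made. Every member is accounted for, and SNHG9 and those averaging 10 FPKM or more are given with all 4 values. Up to 4 genes of each comparison list are named, those of highest mean, and some of these are not reported here. SNHG10, SNHG11 and SNHG21 with all values, UPF2, BLOC1S5-TXNDC5, LINC02585, RPL21, and the 1.5-fold threshold neighbours were chosen after their values were seen. snoRNA genes inside members were read by position from RefSeq, which gives no strand for them here, and those inside mRNAs from GENCODE 44 on the same strand. All 30 members matched GENCODE 44 by current or older symbol. Counting errors used FPKM multiplied by transcript length, with values from 25 to 55 in genes with 1 transcript taken as 1 fragment, a window chosen after looking at the values. The calculation was tested on simulated data. Python 3.11.15, pandas 2.3.3 and numpy 2.4.6 were used.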

Additional observations from a re-analysis of the deposited data

How the results depend on the processing

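No paired analysis was possible because 1 library of each condition could be tied to a listed sample, and for the same reason no replicate was left out. Medians and counts of the expressed hosts were recomputed with other pseudocounts (0.01 and 1 FPKM), no minimum or minima of 5 and 10 FPKM, 3 other scalings, a 2-fold threshold, the hosts without SNHG9, and the hosts with 3 further noncoding snoRNA hosts. Translation efficiency within each genotype kept its direction under these, with counts within 1.5 times. The median log2 ratio of translation efficiency was -0.44 with TPM and -0.50 after equalizing library totals outside ribosomal protein genes, and relative to all genes it was -0.73 in the deposited FPKM and under both scalings. The number at least 1.5-fold lower was 6 with TPM (2.83% of all genes) and 4 at 2-fold (1.90%), and 1 host, SNHG21, was higher with TPM, against 18.6% of all genes. In the polysome libraries 3 hosts were 2-fold lower, as were 0.890% of all genes. In the sub-polysome libraries, the median reversed to -0.0787 with TPM and -0.0728 with equalized totals, 0 hosts were lower with a minimum of 10 FPKM or at 2-fold (0.446% and 0.495% of all genes), and 2 of 30 (SNHG4 and SNHG26) were at least 1.5-fold higher with no minimum (5.03%). Single hosts reversed 4 times in 101 values: SNHG3 to 0.02502 with TPM and 0.0796 summed with RCC1, and SNHG16 to 0.121 with TPM and 0.0590 with equalized totals. The first base of a TOP tract within 5 bases of the start gave 12 hosts. A rescaling adds nearly the same amount to every gene by construction, and stricter thresholds leave fewer genes.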

Other observations

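In GENCODE 44, 3 further noncoding genes above the minimum hold a snoRNA gene on the same strand. DANCR, also known by the synonym SNHG13 and host of SNORA26, had 97.0 FPKM sub-polysome and 22.2 FPKM polysome in WT cells, and 83.2 FPKM and 14.7 FPKM in K177Q cells, a log2 translation efficiency ratio of -0.37. EPB41L4A-AS1, host of SNORA13, had 49.2 FPKM and 11.4 FPKM, against 64.7 FPKM and 7.49 FPKM, and a ratio of -0.99. LINC00888 had 16.4 FPKM and 2.79 FPKM, against 14.9 FPKM and 2.76 FPKM, and a ratio of 0.13. All 3 were more abundant in the sub-polysome libraries, as the SNHG genes were. Of the lncRNAs listed as retained in the nucleus, NEAT1, TUG1 and MALAT1 passed the minimum. Their log2 translation efficiency ratios were between 0.26 and 0.32. Past 1.5-fold were 0 of 3, where 7.03% of all genes were lower and 4.08% higher. In the sub-polysome libraries 2 of 3 were at least 1.5-fold lower in K177Q cells, where 2.94% of all genes were. Their median log2 translation efficiency in WT cells was -0.44.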
